A study of Mus musculus with 15 samples.

Results

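The genes followed here are Sdc3, Sdc4, Fgfr1, Fgfr4 and Met, 5 of the 8059 genes in a bulk RNA-seq table of mouse skeletal muscle stem cells. They were taken by symbol, and all 5 were found and passed the filter on low counts. The cells, also called satellite cells, lie under the basal lamina of muscle fibres and repair them. The series asks how taking a tissue apart changes the cells in it. The groups of 4 libraries at T15, T60 and T120 and of 3 libraries at T30 and T90 came from dissociated muscle, digested with collagenase and dispase per the labels' protocols. The 4 libraries at T0 came from intact muscle. The cells of all 6 groups were fixed with PFA. The numbers in the group names carry no unit in the labels and were taken as minutes. The sources used here give neither strain, age or number of animals nor the sort behind the bulk cells. The labels list 1 sample for each time point, and its 3 or 4 columns, lettered A to D in the table, were taken as separate libraries. Nothing says that they came from separate animals, so p-values measure only the spread between these libraries, which may be technical.

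Syndecans are transmembrane proteoglycans whose heparan sulfate chains bind growth factors such as FGF2 and HGF and present them to receptor tyrosine kinases. Sdc4 and Sdc3 are widely used surface markers of satellite cells. FGF receptors signal through the adaptor FRS2 and the RAS and MAP kinase cascade, and MET, the receptor of HGF, feeds into the same cascade through GAB1 and GRB2. HGF released from the matrix of damaged muscle is a textbook activator of quiescent satellite cells, and FGF signalling favours their proliferation.

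By the GENCODE vM21 annotation of GRCm38 (mm10), all 5 are protein-coding genes. Sdc4 lies at chr2:164424247-164443887 on the minus strand (ENSMUSG00000017009). The other genes are on the plus strand: Sdc3 at chr4:130792537-130826319 (ENSMUSG00000025743), Fgfr1 at chr8:25513654-25575718 (ENSMUSG00000031565), Fgfr4 at chr13:55152640-55168759 (ENSMUSG00000005320) and Met at chr6:17463800-17573980 (ENSMUSG00000009376). Exons of Sdc3 overlap the opposite-strand gene models Gm12970 and Gm26716, and those of Fgfr1 overlap Gm16159. The sources do not say whether counting used strand, so reads there cannot be told apart.

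Promoter sequence from RefSeq (GRCm38.p6) was available for 4 of the 5 genes, and the 250 bases before each RefSeq start site were searched on both strands. The RefSeq starts of Met, Fgfr4 and Sdc4 lie downstream of those in GENCODE. Of the Met window 157 bases, and of the Fgfr4 window 178, fall in GENCODE exons. The whole Sdc4 window lies inside the GENCODE gene, with 0 bases in its exons, and so is not upstream of the GENCODE start. The windows of the syndecan pair are shown because Sdc4 rose and Sdc3 was not called. A stretch of Met, also inside the GENCODE gene, is shown because it holds an AP-1 match. Capitals mark matches to the AP-1 motif TGANTCA or to the NF-kB consensus.

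Sdc4, chr2:164443189-164443438, minus strand: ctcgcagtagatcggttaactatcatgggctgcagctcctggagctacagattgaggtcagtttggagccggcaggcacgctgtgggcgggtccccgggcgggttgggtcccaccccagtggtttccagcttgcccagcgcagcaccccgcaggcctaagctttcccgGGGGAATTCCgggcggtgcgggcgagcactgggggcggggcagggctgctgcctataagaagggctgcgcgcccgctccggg
Sdc3, chr4:130792287-130792536, plus strand: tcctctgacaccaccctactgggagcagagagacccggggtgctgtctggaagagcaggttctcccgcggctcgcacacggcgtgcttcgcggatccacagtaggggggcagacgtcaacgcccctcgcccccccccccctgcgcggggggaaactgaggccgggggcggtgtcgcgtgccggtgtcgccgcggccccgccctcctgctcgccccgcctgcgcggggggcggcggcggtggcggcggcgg
Met, chr6:17463891-17463920, plus strand: ctgttgcccggcTGAGTCAcgggccgggca

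The Sdc4 window held an NF-kB match at -82 to -73, counted from the start site, 4 GC boxes (GGGCGG) and, at -29 to -24, a TATAAG. The Sdc3 window held 3 GC boxes and neither of the 2 motifs in capitals. Met had its AP-1 match at -54 to -48, an E-box CACGTG and 3 GC boxes, and the Fgfr4 window held 2 GC boxes. The GC box at -72 to -67 of Sdc4 starts right after the NF-kB match. No window of these genes matched the cyclic AMP motif, spelled TGACGTCA. None matched the EGR motif, the CArG box, the TATA box with its last letter A, or the CCAAT box. Of 32817 mouse windows of the same length, 6.75% held the AP-1 motif, 3.9% the NF-kB consensus, 32.7% the GC box, 6.66% TATAAG, 6.02% the E-box, 1.55% the cyclic AMP motif, 4.7% the EGR motif (GCGNGGGCG), 12.4% the TATA box TATAAA, 33.8% the CCAAT box and 1.47% the CArG box. A match is a description of letters and no evidence of binding.

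Libraries held 2974294 to 10482407 counts over the listed genes at T0, T15 and T30, and 8647622 to 27826437 at T60, T90 and T120. Background was measured on long genes, of which 7 of 40 were listed. They included Dnah8 (on average 5.61 counts per kb), Pclo (9.63) and Ryr3 (145). Such a gene could pass the low-count floor of the table through the early libraries alone, so a higher early density may be partly built in. The median density of the 7 genes was 0.595 to 7.63 CPM per kb of exon up to T30 and 0.0716 to 1.05 CPM per kb later. At that density, background made up 9.15% to 82.0% of the Sdc3 counts and 3.70% to 55.4% of the Met counts up to T30, but at most 3.57% for Sdc4, 7.85% for Fgfr1 and 2.77% for Fgfr4. For fold changes after background subtraction, TMM factors were computed anew on the subtracted counts, so those values differ in scaling as well. All 13 satellite cell markers were listed, Sdc3 and Sdc4 among them. At T120 against T0, 5 were higher and 5 lower, shares near the 37.3% and 39.5% of all listed genes. Their median log2 fold change was 0.22 (5 and 6 with upper-quartile factors, median -0.14). The higher ones were Myod1 (3.52), Sdc4, Des (1.70), Cxcr4 (0.79) and Itga7 (0.77). The lower ones were Chodl (-1.93), Pax7 (-1.83), Cdh15 (-1.12), Calcr (-0.79) and Cd34 (-0.69). Of these, Pax7, the defining transcription factor of these cells, averaged 378 ± 80.8 CPM at T120 and 1344 ± 203 CPM at T0 (SD, 4 libraries each). CPM are counts scaled to the TMM library size. Fold changes below are log2 ± standard error from edgeR's quasi-likelihood test, with p-values adjusted over all listed genes, and a gene was called at an adjusted p under 0.05. All comparisons with T0 share the same 4 T0 libraries. In bulk libraries, fewer cells of a type and less RNA per cell cannot be told apart.

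Over the course, 4 of the 5 genes changed. Sdc4, Fgfr1 and Met rose, Fgfr4 fell at T120, and Sdc3 did not pass the test. In the joint edgeR test of any change over time, the adjusted p was 8.69e-12 for Sdc4, 1.19e-10 for Fgfr1, 5.88e-10 for Met, 5.09e-05 for Fgfr4 and 0.823 for Sdc3. That test called 85.7% of all listed genes, so a call by itself says little about these 5.

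**Figure D1:**
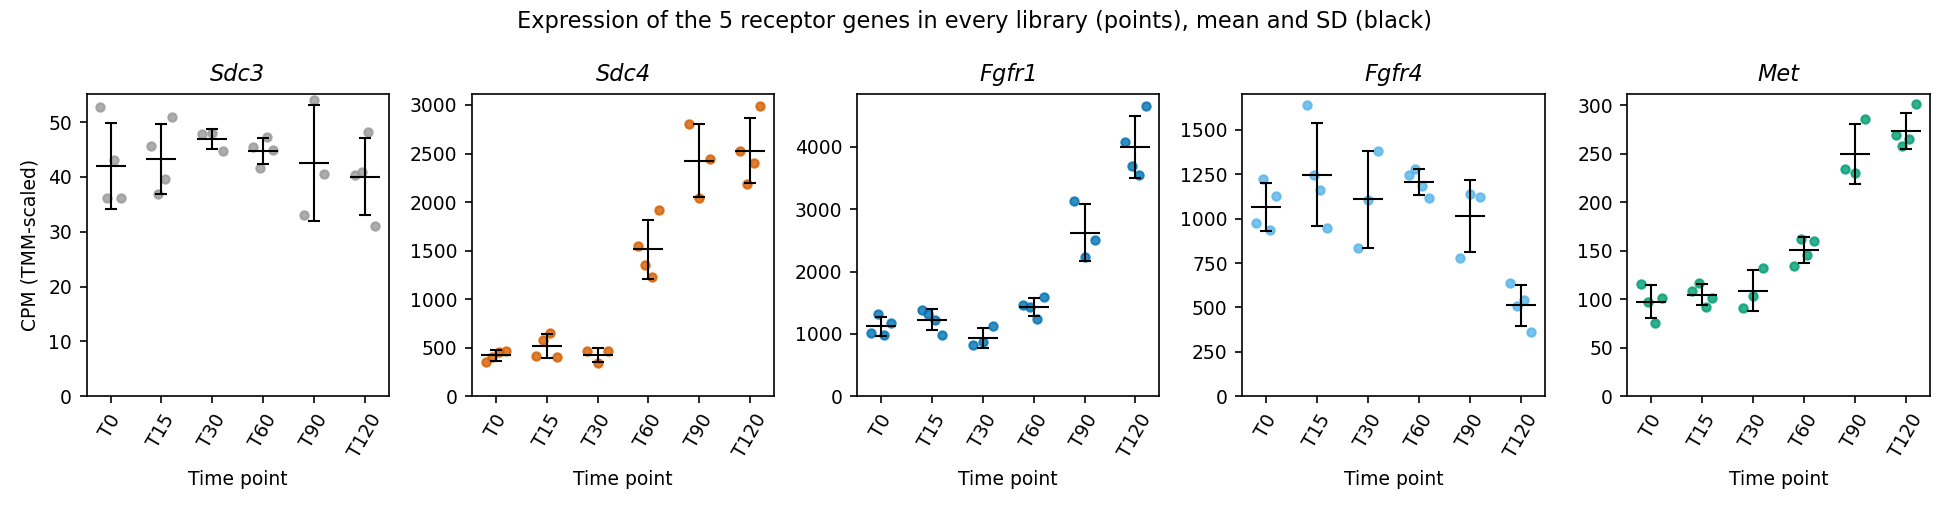
Expression of Sdc3, Sdc4, Fgfr1, Fgfr4 and Met in CPM (counts scaled to the TMM library size, vertical axes from 0) at the 6 time points (horizontal axes). Points are single libraries and black marks the mean ± SD of 3 or 4 libraries. Sdc4 stays at 346 to 657 CPM up to T30 and reaches 2190 to 2986 CPM at T120, while Fgfr4 falls to 361 to 638 CPM at T120.

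Sdc4, which binds matrix proteins and growth factors at the surface of satellite cells, had 352, 403, 456 and 472 CPM at T0. Its level was 418, 583, 657 and 403 CPM at T15 and 468, 346 and 468 CPM at T30. At T60 the libraries gave 1552, 1351, 1227 and 1923 CPM, at T90 they gave 2799, 2043 and 2441 CPM, and at T120 they gave 2531, 2190, 2405 and 2986 CPM. Every library from T60 on stood above every library up to T30. Against T0, the log2 fold change was 1.85 ± 0.18 at T60 (adjusted p = 3.48e-08), 2.53 ± 0.19 at T90 (adjusted p = 4.53e-10) and 2.59 ± 0.19 at T120 (adjusted p = 9.87e-11). The last is a 6.01-fold difference, and 97.5% of listed genes had a lower fold change. T60 against T30 gave a log2 fold change of 1.82 ± 0.20 (adjusted p = 5.61e-07), the 89th largest of all listed genes. After background subtraction, with TMM factors computed anew, that step was 0.94 (adjusted p = 0.00427). Background was at most 3.57% of the Sdc4 counts, and the part of the new scaling in this shift was not tested. T90 against T60 added 0.68 ± 0.19 (adjusted p = 0.00967), a call that was lost without library 90A (0.56, adjusted p = 0.0626). T120 against T90 added 0.06 ± 0.19 (adjusted p = 0.863).

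Sdc3, the other syndecan of satellite cells, had 40.3, 40.8, 48.1 and 31.1 CPM at T120, against 52.7, 36.2, 43.0 and 36.1 CPM at T0. The ranges of these groups overlapped. Its mean at the points between ran from 42.5 ± 10.6 CPM at T90 to 46.9 ± 1.84 CPM at T30 (SD, 3 libraries each). No comparison with T0 passed the edgeR test. The log2 fold change was largest at T30 (0.16 ± 0.17, adjusted p = 0.651) and lowest at T120 (-0.06 ± 0.16, adjusted p = 0.718). These values do not show that Sdc3 stayed constant, since up to 82.0% of its early counts lay at the background density. After subtraction of that background the log2 fold change at T120 was 0.08 (adjusted p = 0.755). With upper-quartile factors, which moved the median of all genes to -0.43, it was -0.43 (adjusted p = 0.0289).

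The other syndecans gave a further spread within the family. Sdc1, an epithelial and plasma cell syndecan, rose, with 21.7 ± 3.74 CPM at T120 and 12.2 ± 1.74 CPM at T0 and a log2 fold change of 0.84 ± 0.26 (adjusted p = 0.00585), a call lost with upper-quartile factors (0.49, adjusted p = 0.109). Sdc2, a syndecan of mesenchymal cells named here after its values were seen, fell, with 42.3 ± 6.51 CPM at T120 and 56.7 ± 8.90 CPM at T0 and a log2 fold change of -0.42 ± 0.13 (adjusted p = 0.00772). Sdc4 thus rose to 2190 CPM or more at T120, while Sdc2 fell and Sdc3 was not called.

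Fgfr1, the receptor through which satellite cells respond to FGF2, had 1013, 1315, 988 and 1178 CPM at T0. It gave 1383, 1326, 1219 and 989 CPM at T15, 824, 870 and 1122 CPM at T30, and 1471, 1424, 1237 and 1594 CPM at T60. At T90 it had 3132, 2232 and 2505 CPM, and at T120 it had 4076, 3698, 3544 and 4659 CPM. The T90 and T120 libraries did not overlap with the T0 libraries or with each other, whereas those of T60 overlapped with T0. The log2 fold change was 1.22 ± 0.16 at T90 against T0 (adjusted p = 7.37e-07) and 1.83 ± 0.15 at T120 against T0 (adjusted p = 7.57e-10), a 3.56-fold difference. Between T60 and T120 the log2 fold change was 1.48 ± 0.15 (adjusted p = 9.3e-08), and 98.0% of listed genes had a lower one. T120 against T90 gave 0.61 ± 0.16 (adjusted p = 0.0106), which was no longer called without library 90B (0.51, adjusted p = 0.0587).

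The T60 value of Fgfr1 was the least firm of these results. Its log2 fold change against T0 was 0.35 ± 0.15 (adjusted p = 0.0466). It was 0.088 with upper-quartile factors (adjusted p = 0.551), 0.35 with the library letter as a replicate block (adjusted p = 0.0633) and -0.015 after background subtraction (adjusted p = 0.94). Without the 5 libraries of highest background (0A, 0C, 15D, 30A and 30B) it was 0.22 (adjusted p = 0.243). Leaving out 1 library at a time gave 0.29 to 0.43, and the call was lost without any one of 0A, 0C, 0D, 15B, 15C, 60A, 60B, 60D, 120A or 120C. The authors' deposited table gives a log2 fold change of 0.38 with an adjusted p of 0.0119 for the same pair of time points.

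Fgfr4, an FGF receptor found at high levels in satellite cells and myoblasts, fell at T120, where Fgfr1 rose. Its libraries gave 977, 1221, 933 and 1129 CPM at T0, 1640, 1245, 1160 and 946 CPM at T15, and 837, 1104 and 1383 CPM at T30. They gave 1245, 1280, 1183 and 1117 CPM at T60, 778, 1141 and 1122 CPM at T90, and 638, 507, 541 and 361 CPM at T120. All 4 libraries at T120 lay below every library of every earlier time point. The log2 fold change against T0 was 0.18 ± 0.19 at T60 (adjusted p = 0.432), -0.07 ± 0.20 at T90 (adjusted p = 0.764) and -1.06 ± 0.19 at T120 (adjusted p = 3.4e-05). For T120 against T90 it was -0.99 ± 0.20 (adjusted p = 0.00219), and 1.35% of listed genes fell further in that step. With background subtraction, T90 against T0 became -0.45 (adjusted p = 0.0329), and with upper-quartile factors it became -0.43 (adjusted p = 0.047).

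Met, the receptor tyrosine kinase for HGF, had 116, 96.8, 75.4 and 101 CPM at T0, 109, 117, 91.9 and 102 CPM at T15, and 90.8, 104 and 132 CPM at T30. It reached 134, 163, 146 and 161 CPM at T60, 234, 231 and 286 CPM at T90, and 270, 258, 265 and 301 CPM at T120. Every library from T60 on exceeded every library up to T30, and those of T90 and T120 overlapped with each other. The log2 fold change against T0 was 0.63 ± 0.13 at T60 (adjusted p = 0.000347), 1.36 ± 0.14 at T90 (adjusted p = 2.84e-08) and 1.49 ± 0.13 at T120 (adjusted p = 2.05e-09), a 2.80-fold difference. Although up to 55.4% of its early counts lay at the background density, subtraction of that background gave 0.51 at T60 (adjusted p = 0.00962) and 1.45 at T120 (adjusted p = 7.83e-08). T90 against T60 gave 0.73 ± 0.14 (adjusted p = 0.000559), and T120 against T90 gave 0.13 ± 0.14 (adjusted p = 0.543).

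Counts of called genes have to be read against the whole table. At T15 against T0, 0 of the 5 genes were called and 0 had an unadjusted p under 0.05 in edgeR, and DESeq2 and limma-voom called 0 as well. Of all listed genes, edgeR called 0.67% there, 0.658% higher and 0.0124% lower. At T30 against T0 the same 3 tools called 0 of the 5, with 0 at an unadjusted p under 0.05, against 5% of all genes by edgeR, 3.66% higher and 1.34% lower. At T60 against T0, 3 of the 5 were called higher and 0 lower by each of the 3 tools, against 27.9% higher and 28.3% lower, 56.2% together, of all genes. At T90 against T0, 3 of the 5 were higher and 0 lower, against 33.8% and 35%, together 68.8%. At T120 against T0, 3 of the 5 were higher and 1 was lower, against 37.3% and 39.5%, together 76.8%. With upper-quartile factors the split of all listed genes was 1484 higher and 3727 lower at T60, 1873 and 4081 at T90, and 2140 and 4154 at T120. With the authors' factors, T30 against T0 gave 437 genes higher and 41 lower, where TMM gave 295 and 108. The same factors gave 297 and 66 for T30 against T15, where TMM gave 255 and 139. Upper-quartile factors gave 1267 higher and 3236 lower for T60 against T30 and 981 and 1608 for T90 against T60, where TMM gave 2137 and 1974, and 1347 and 1094.

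The steps between neighbouring time points were tested in the same way. For T30 against T15, 0 of the 5 were called by edgeR, DESeq2 or limma-voom and 1, Fgfr1 (-0.39 ± 0.16, adjusted p = 0.146), had an unadjusted p under 0.05 and was called without library 30C (-0.51, adjusted p = 0.045), against 4.89% of all genes called by edgeR, 3.16% higher and 1.72% lower. For T60 against T30, Sdc4, Fgfr1 (0.61 ± 0.16, adjusted p = 0.00339) and Met (0.46 ± 0.14, adjusted p = 0.00882) were called higher, 3 of 5, against 26.5% of all genes (24.5% lower, 51% together). Of these, Sdc4 alone kept its call after background subtraction. Fgfr1 then gave -0.19 (adjusted p = 0.277), Met gave 0.22 (adjusted p = 0.273; without library 30A it was 0.34 with an adjusted p of 0.0792), and Fgfr4 was called lower (-0.70, adjusted p = 0.0039). For T90 against T60, Sdc4, Fgfr1 (0.87 ± 0.16, adjusted p = 0.000408) and Met were called higher, 3 of 5, against 16.7% of all genes (13.6% lower, 30.3% together). For T120 against T90, 1 of the 5, Fgfr1, was called higher and 1, Fgfr4, lower, against 9.11% and 13.9% of all genes, together 23%. Libraries of T60 and T120 had 0.0716 to 1.05 CPM per kb of background, most of all in library 120B. For T120 against T60, 3 of the 5 were higher and 1 was lower, against 28.4% and 32% of all genes, together 60.4%. Its log2 fold changes were 0.74 ± 0.18 for Sdc4, 1.48 ± 0.15 for Fgfr1, 0.86 ± 0.13 for Met and -1.24 ± 0.19 for Fgfr4 (adjusted p = 0.0011, 9.3e-08, 9.33e-06 and 1.37e-05).

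The order of the 5 genes by level per length changed during the course. Levels of different genes are given as CPM per kb of exon. At T0 the order was Fgfr4 at 301 ± 37.7, Sdc4 at 165 ± 21.2, Fgfr1 at 114 ± 15.5, Met at 12.7 ± 2.20 and Sdc3 at 7.01 ± 1.31 CPM per kb (SD, 4 libraries). At T0, T15 and T30 the order was the same and the libraries of neighbours in it did not overlap. At T60 Sdc4 led, at 594 ± 119.5 CPM per kb, with Fgfr4 next at 341 ± 20.3 CPM per kb. At T90 Fgfr4 and Fgfr1 were at 286 ± 57.6 and 266 ± 46.7 CPM per kb and their libraries overlapped. At T120 the order was Sdc4 at 993 ± 132, Fgfr1 at 405 ± 50.3, Fgfr4 at 145 ± 32.4, Met at 35.6 ± 2.46 and Sdc3 at 6.69 ± 1.17 CPM per kb, with no overlap between neighbours. Among all listed genes, Sdc4 stood at percentile 99.6 of level per length at T120 and 98.2 at T0. Met stood at 84.9 at T120 and 64.6 at T0, and Sdc3 at 37.8 at T120 and 35.4 at T0.

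**Figure D2:**
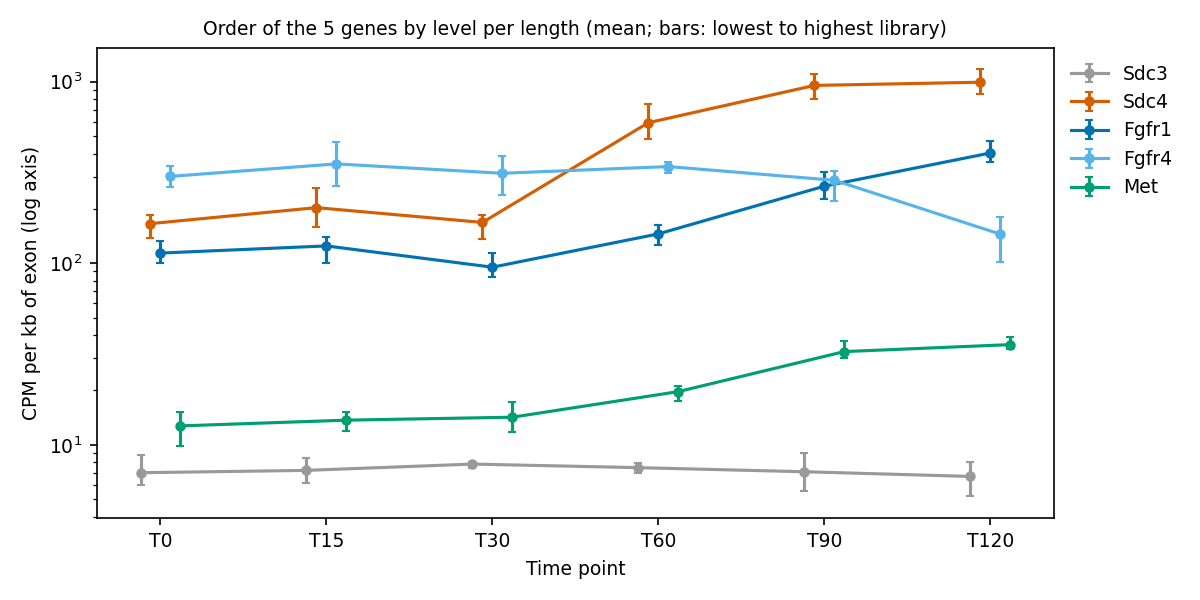
Level of the 5 genes per length of exon (CPM per kb, log axis) at the 6 time points. Points are means and bars run from the lowest to the highest of 3 or 4 libraries. Fgfr4 leads up to T30, Sdc4 leads from T60 at 594 CPM per kb or more, and the libraries of Fgfr1 and Fgfr4 overlap at T90.

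Ratios of counts within a library do not depend on the scaling between libraries. Fgfr1 over Fgfr4 had 1.04, 1.08, 1.06 and 1.04 at T0, with T15 at 0.843 to 1.06 and T30 at 0.788 to 0.985. It then gave 1.05 to 1.43 at T60 (median 1.15), 4.02, 1.96 and 2.23 at T90, and 6.39, 7.29, 6.55 and 12.9 at T120. The receptor pair thus held near parity of counts in every library up to T60, the lowest being 0.788 and the highest 1.43, and T120 stood 7.52-fold above T0. Sdc4 over Sdc3 had a median of 10.9 at T0 (6.69 to 13.1), 33.3 at T60 (26.0 to 42.9), 60.4 at T90 (37.8 to 84.5) and 58.3 at T120 (50.0 to 96.1). The median of Sdc4 over Met was 4.41 in intact tissue (T0), 10.0 at T60 and 9.23 at T120. Met over Fgfr1 kept within 0.0646 to 0.119 over all 22 libraries. In all, 50 comparisons of ratios were made, 10 pairs at 5 time points against T0. The 2 groups did not overlap in 23 of them, and 14 had the two-sided exact permutation p of 0.0286, the smallest that 4 against 4 libraries allow. With 3 against 4 libraries the smallest is 0.0571. After Benjamini-Hochberg adjustment 0 of the 50 permutation tests passed, with a lowest adjusted p of 0.102, so no ratio is called changed. With these smallest p-values an adjusted p under 0.05 was nearly out of reach, so this outcome does not show that the ratios stayed the same.

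**Figure D3:**
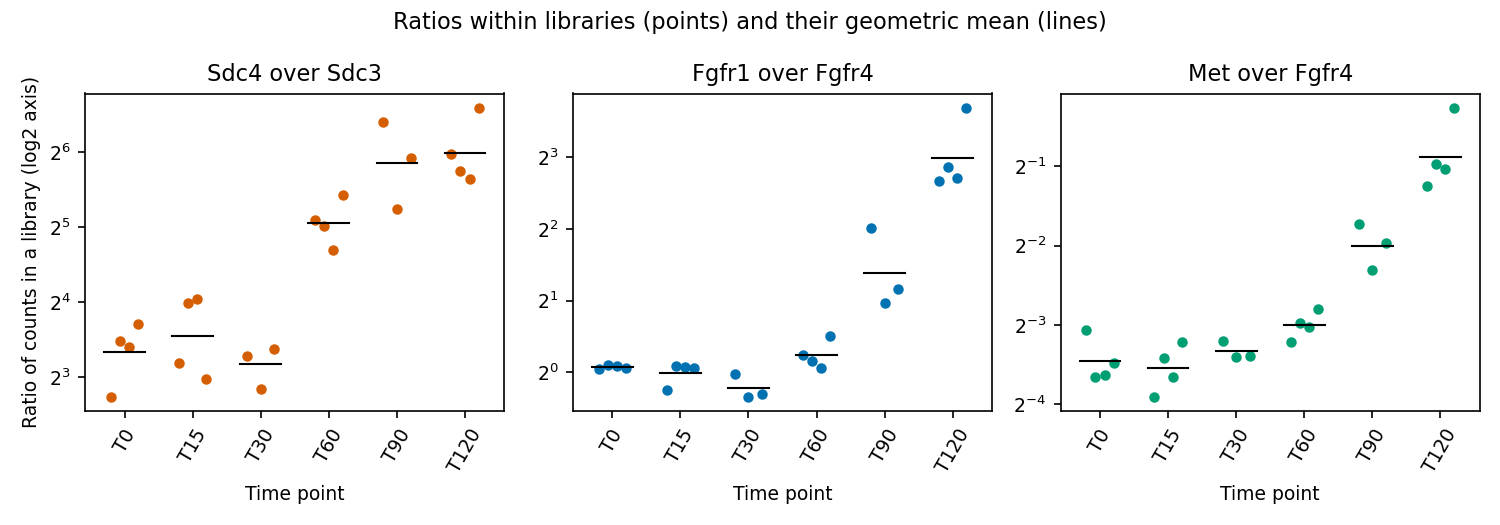
Ratio of the counts of a pair of genes in the same library (log2 axes) at the 6 time points, for Sdc4 over Sdc3, Fgfr1 over Fgfr4 and Met over Fgfr4. Points are libraries and lines are geometric means. Fgfr1 over Fgfr4 lies between 0.788 and 1.43 up to T60 and between 6.39 and 12.9 at T120.

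Across the 22 libraries, which share their depth and background differences, log2 CPM of the rising genes correlated with each other, with Pearson's r of 0.91 for Sdc4 with Met, 0.93 for Fgfr1 with Met and 0.88 for Sdc4 with Fgfr1. Fgfr1 and Fgfr4 had r = -0.71. The listed genes most like Sdc4 were Errfi1, Mllt6 and Asxl1 (r = 0.99 each). Smg1 (r = 0.99) and Tbc1d15 (r = 0.98) were among those most like Fgfr1, and Abhd2 and Adss (r = 0.98 each) among those most like Met. Sema6a, Ttc3 and Ppp2r5c were most like Fgfr4 (r = 0.97, 0.96 and 0.95). Nothing followed Sdc3 closely, and Rassf3, Reep5 and Angptl2 came nearest at r = 0.70, 0.70 and 0.69. These are descriptions over libraries that differ mainly by time point.

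Of the core proteins that carry heparan sulfate, at the cell surface or secreted, 12 of 16 genes were listed, Sdc3 and Sdc4 included. The groups of genes below are counted at T120 against T0, where 37.3% of all listed genes were higher and 39.5% lower. Of the 12 cores, 5 were called higher, 2 lower and 5 not, a share near that of all genes for the higher ones, with a median log2 fold change of 0.24 against -0.08 over all listed genes (4 higher and 5 lower with upper-quartile factors). The largest rise was that of Cd44, a hyaluronan receptor whose variant forms carry heparan sulfate, with 651 ± 57.9 CPM at T120 and 56.2 ± 10.9 CPM at T0 (log2 fold change 3.53 ± 0.19, adjusted p = 1.54e-12). Sdc4 was next, followed by Nrp1, a co-receptor for VEGF and semaphorins, at 1.23 ± 0.37 (adjusted p = 0.00532), or 1.92 without the 5 libraries of highest background. Of the enzymes that build and edit the chains, 17 of 34 were listed, and 8 were higher and 4 lower, against 37.3% and 39.5% of all genes (2 and 8 with upper-quartile factors, 4 and 3 after background subtraction). Ugdh, which makes the sugar nucleotide UDP-glucuronate, rose by 2.07 ± 0.18 (adjusted p = 1.65e-09), and the sulfotransferase gene Ndst1 rose by 1.49 ± 0.08 (adjusted p = 4.4e-12). Xylt2, which starts the chains, fell (-1.33 ± 0.22, adjusted p = 1.27e-05), as did Papss1, which makes the sulfate donor (-0.96 ± 0.12, adjusted p = 5.57e-07).

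Of the proteins that bind or cut syndecans, 19 of 24 genes were listed, and 12 were higher and 2 lower at T120 against T0, where 37.3% and 39.5% of all genes were, with a median log2 fold change of 0.47 (7 and 5 with upper-quartile factors). Sdcbp, which encodes syntenin and binds the syndecan tail, had 168 ± 7.50 CPM at T120 and 46.2 ± 6.36 CPM at T0 (log2 fold change 1.87 ± 0.13, adjusted p = 4.68e-11). Prkcd, a protein kinase C gene, rose by 2.03 ± 0.33 (adjusted p = 1.23e-05), and Timp3, an inhibitor of the proteases that shed syndecans, rose by 1.57 ± 0.19 (adjusted p = 2.92e-07). Fyn, a SRC-family kinase gene, rose by 1.14 ± 0.14 (adjusted p = 3.05e-07).

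On the ligand and receptor side, 8 of 32 genes of the FGF family and its partners were listed, and Fgfr2, Fgfr3 and Hgf were not analysed here. At T120 against T0, 2 of the 8 were higher and 2 lower, against 37.3% and 39.5% of all genes (1 and 3 with upper-quartile factors). Besides Fgfr1 and Fgfr4 these were Flrt2, a membrane partner of FGF receptors (0.58 ± 0.21, adjusted p = 0.0145), and Fgf11, an intracellular FGF homologue (-0.73 ± 0.17, adjusted p = 0.00073). Flrt2 was no longer called with upper-quartile factors (0.22, adjusted p = 0.359) or after background subtraction (adjusted p = 0.0582). Fgf2, a ligand of Fgfr1, was at 0.07 ± 0.29 (adjusted p = 0.832), at 0.39 without the 5 libraries of highest background (adjusted p = 0.231) and at 2.43 after background subtraction (adjusted p = 0.0513). Of the genes around HGF and MET, Met included, 6 of 20 were listed, with 4 higher and 1 lower at T120, against the same shares of all genes. Plaur, the urokinase receptor, had 67.8 ± 19.1 CPM at T120 and 4.46 ± 1.96 CPM at T0 (log2 fold change 3.97 ± 0.42, adjusted p = 2.6e-08). Plat, a plasminogen activator, rose by 1.68 ± 0.30 (adjusted p = 2.75e-05). Plxnb1, a semaphorin receptor that can associate with MET, fell (-1.14 ± 0.21, adjusted p = 4.13e-05), and after background subtraction this fall was not called (-0.64, adjusted p = 0.0984).

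Downstream, 28 of 30 adaptor and kinase genes shared by FGF receptors and MET were listed, and 21 were higher and 5 lower at T120 against T0, where 37.3% and 39.5% of all genes were, with a median log2 fold change of 0.65 (16 and 7 with upper-quartile factors). Grb2, the adaptor that links both receptors to RAS, had 84.7 ± 8.16 CPM at T120 and 20.1 ± 1.77 CPM at T0 (log2 fold change 2.08 ± 0.13, adjusted p = 1.25e-11). The transcription factor gene Stat3 rose by 3.65 ± 0.19 (adjusted p = 1.3e-12). Pik3r1, a regulatory subunit of PI 3-kinase, fell (-2.50 ± 0.17, adjusted p = 3.38e-11). Of the feedback inhibitors and targets of FGF receptor signalling, 17 of 22 were listed, and 12 were higher and 5 lower, against the same shares of all genes, with a median of 1.36 (11 and 5 with upper-quartile factors). At T30, before any of Sdc3, Sdc4, Fgfr1, Fgfr4 or Met was called, 5 of these 17 were higher, against 3.66% of all genes. That count was 3 with limma-voom. Without the 5 libraries of highest background only library 30C was left at T30, so no count is given for that setting. The largest changes at T120 were in Fosl1 (7.40 ± 0.57, adjusted p = 3.16e-10), Egr1 (5.39 ± 0.28, adjusted p = 1.22e-12) and Ier3 (5.04 ± 0.38, adjusted p = 2.22e-10), which are induced by many signals, and in Errfi1, an inhibitor of EGF receptor signalling (3.93 ± 0.22, adjusted p = 2.86e-12). Of the other receptor tyrosine kinases, 24 of 47 were listed, with 9 higher and 8 lower, shares near the 37.3% and 39.5% of all genes (7 and 13 with upper-quartile factors). They included Epha2 (3.06 ± 0.27, adjusted p = 2.11e-09), Kdr (1.70 ± 0.55, adjusted p = 0.00834), Ntrk3 (-2.83 ± 0.92, adjusted p = 0.00818) and Mertk (-1.86 ± 0.36, adjusted p = 9.16e-05). Kdr is also an endothelial marker, and it was at 2.51 without the 5 libraries of highest background. The Ntrk3 call was lost without the 5 libraries of highest background (-2.04, adjusted p = 0.0844).

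**Figure D4:**
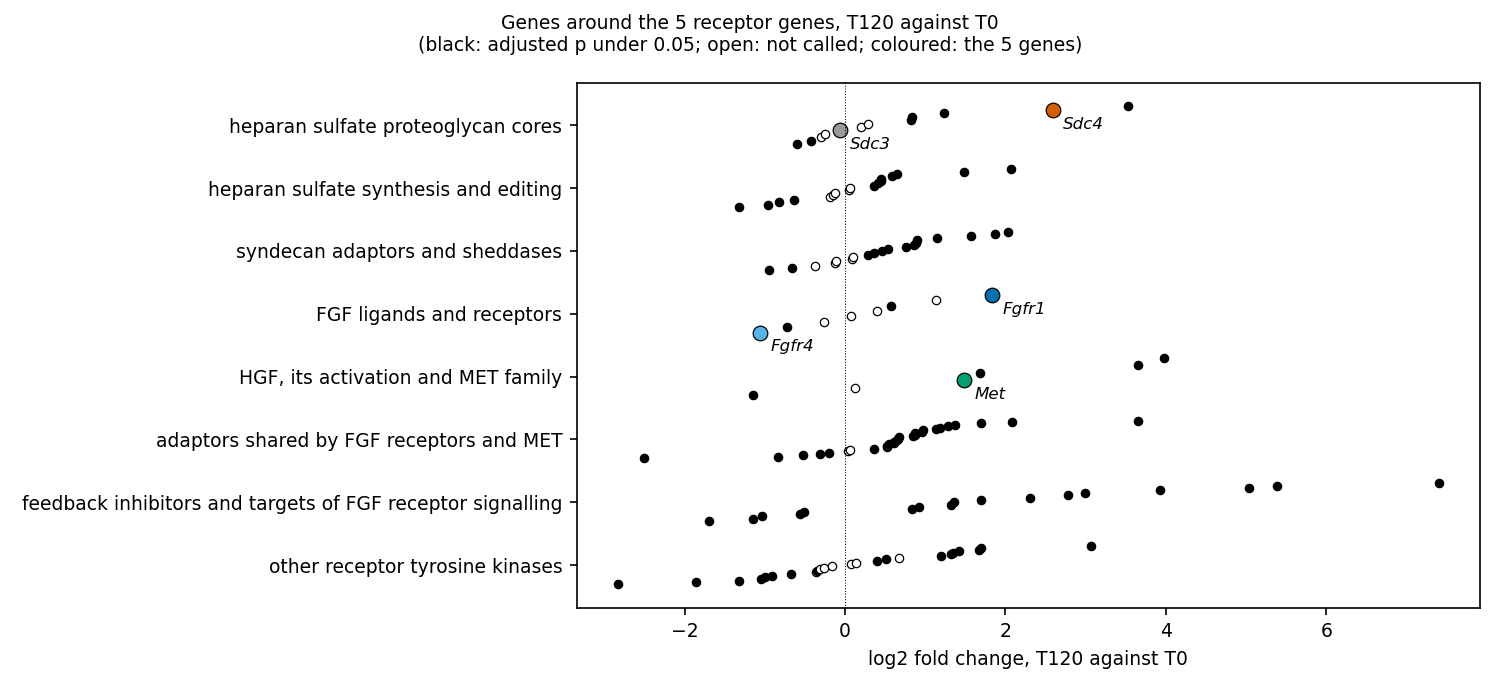
Log2 fold change at T120 against T0 (horizontal axis) of every listed gene in 8 groups around syndecans, FGF receptors and MET. Each point is a gene, black where the adjusted p is under 0.05 and open where not, and Sdc3, Sdc4, Fgfr1, Fgfr4 and Met are coloured and named. Fgfr1 lies at 1.83 and Fgfr4 at -1.06 within the FGF group, and Sdc4 at 2.59 and Sdc3 at -0.06 within the proteoglycan group.

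Markers of other cells also moved at T120. The counts below are for T120 against T0, where 37.3% of all listed genes were higher and 39.5% lower. Of 11 endothelial markers, 6 were listed and 5 were higher. Their summed level was 329 to 621 CPM at T120 and 171 to 284 CPM at T0, with Cdh5 at 101 ± 49.4 CPM at T120 and 19.2 ± 6.48 CPM at T0. Of 9 smooth muscle and pericyte markers, 6 were listed and 2, Rgs5 and Myh11, were higher. Their sums were 486 to 690 CPM at T120 and 240 to 343 CPM at T0. Without the 5 libraries of highest background Pdgfrb was also called higher (1.22, adjusted p = 0.00804). Acta2 (0.11, adjusted p = 0.776) and Abcc9 (0.16, adjusted p = 0.472) were not called in that setting. Of 10 fibro-adipogenic markers, 6 were listed and 2, Dcn and Col1a1, were higher. Their sums were 1888 to 2256 CPM at T120 and 1753 to 2925 CPM at T0. With upper-quartile factors Col1a1 was not called (0.56, adjusted p = 0.0807). Without the 5 libraries of highest background Col1a2 was also called higher (0.93, adjusted p = 0.037). In that setting Col3a1 (-0.48, adjusted p = 0.0176) and Gsn (-0.38, adjusted p = 0.011) were called lower. Of the remaining lists, Cd68 for immune cells (1 of 11 listed) was higher (0.72, adjusted p = 0.0466). That call was lost with upper-quartile factors, limma-voom and background subtraction (adjusted p = 0.324, 0.151 and 0.097) and kept with DESeq2 (adjusted p = 0.0201). Myofibre markers (7 of 11 listed) had 2 higher and 4 lower. Their sums were 215 to 472 CPM at T120 and 479 to 703 CPM at T0. Of the lower ones, Myh1 (-0.88) and Neb (-0.62) were not called after background subtraction (-0.13 and 0.20, adjusted p = 0.823 and 0.584). For the other myofibre markers that setting is not reported here. The single Schwann cell marker listed (Mbp) was not called, but was after background subtraction (8.45, adjusted p = 3.74e-05). Of 5 tenocyte markers, 0 were listed. No listed marker was at 0. At T60 the sums were 131 to 191 CPM for endothelial, 330 to 526 CPM for smooth muscle and pericyte, and 2445 to 2623 CPM for fibro-adipogenic markers. The part of these cells in the T120 results was not tested.

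**Figure D5:**
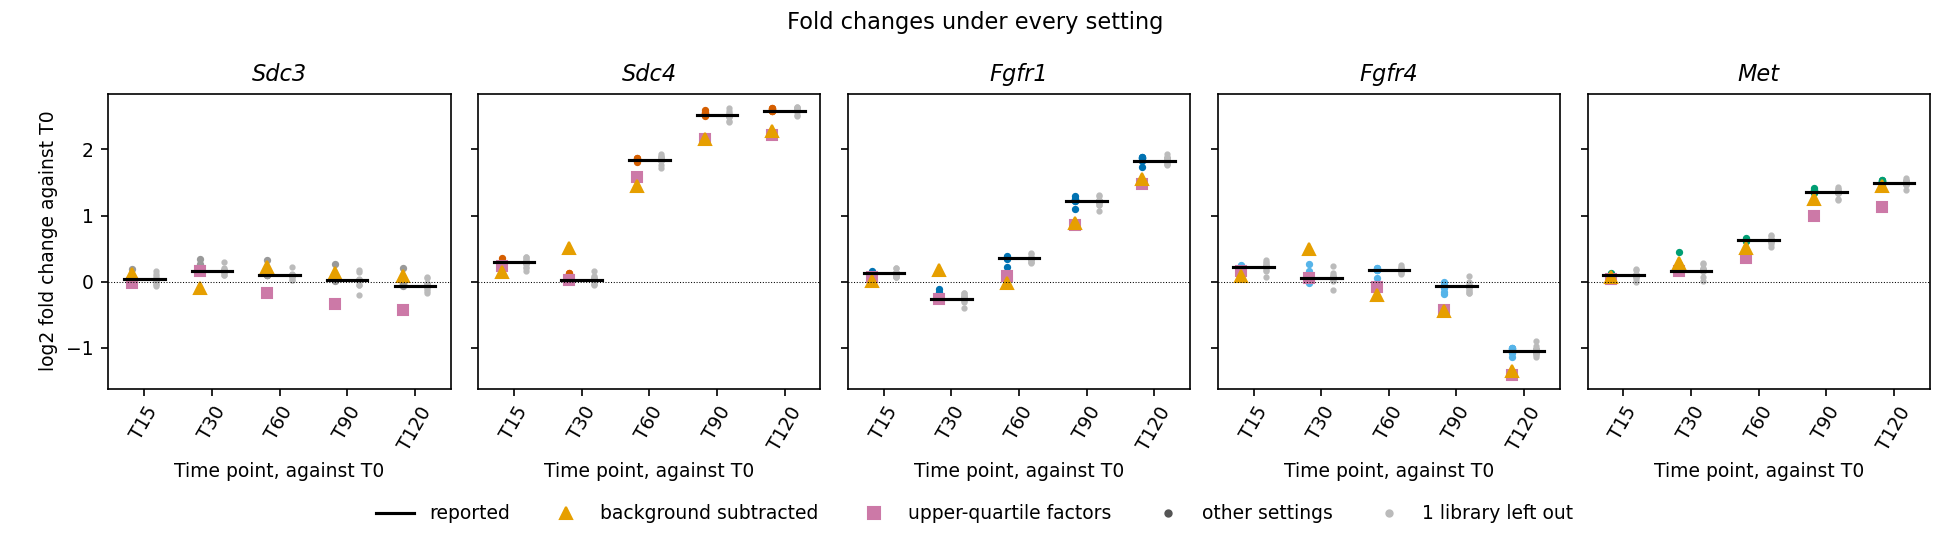
Log2 fold changes of the 5 genes against T0 (vertical axis) at 5 time points under every setting. Black lines are the values reported, triangles follow background subtraction, squares use upper-quartile factors, coloured points are the other settings and grey points leave out 1 library each. The T120 values of Sdc4, Fgfr1, Met and Fgfr4 keep their sign throughout, and Fgfr1 at T60 ranges from -0.015 to 0.43.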

How the data were processed

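Members and gene lists were chosen with earlier results of these data known. The deposited table gives raw counts per gene for 22 bulk libraries, per the file headers. The submitters' processing notes name the build mm10 and, without order, DESeq2 1.18.1, cutadapt 1.11 and featureCounts 1.4.5-p3, but no aligner or annotation. Libraries were made with a stranded low-input total RNA kit and read as 65-base single reads, per the labels' protocols. The authors' normalized columns are a score (counts over 1 factor per library, within 0.53) and gave an alternative scaling, and the authors' log2 fold changes and p-values were set beside one result. The authors' linear fold ratio columns were not used. The lowest deposited mean signal over libraries (baseMean, by the authors) is 98.4, so weakly expressed genes are outside it.

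The test of counts was that of edgeR 4.0.16 (R 4.3.3, TMM, quasi-likelihood F test, time as a factor, 22 libraries, Benjamini-Hochberg over 8059 genes, common biological coefficient of variation 0.192). Standard errors are the size of the log2 fold change divided by the root of F. On simulated counts for T60 against T0 over 8059 genes, 96% of 2-fold and 100% of 4-fold changes were recovered, with 7 false calls. In that simulation few genes changed, evenly up and down, with the same spread for every gene and no background. In the data 56.2% of genes were called at T60 against T0, so these rates check the code and do not carry over. Ratios used counts + 0.5 and exact permutation tests (SciPy 1.17.1). Gene lengths are the union of exons in GENCODE vM21, which held 8049 of the identifiers. Named genes are the 5 genes, at most 4 called genes per list with the largest T120 change, all called genes of lists with 5 or fewer, and the 3 genes most correlated with each of the 5, of which some are not reported here. Alternatives were RLE, upper-quartile and authors' factors, DESeq2 1.42.0, limma-voom (limma 3.58.1), at least 10 counts in every library, only 2 time points, a replicate block, background subtraction and leaving out libraries. The list counts and the joint test under these settings were added after seeing the data. Of the 15 samples, 9 of single nuclei or cells were not analysed here.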

Additional observations from a re-analysis of the deposited data

Results flagged for a closer look

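Among 32 groups of 4 libraries (levels of the 5 genes and 3 ratios of counts), 2 held a library that stood apart from the other libraries of its group. Chance gives about 1 such group in 20. The ratio of Fgfr1 over Fgfr4 was 12.9 in library 120D and 6.39 to 7.29 in the other T120 libraries, and the same library had the highest Fgfr1 (4659 CPM) and the lowest Fgfr4 (361 CPM) of T120. The ratio was 0.843 in library 15A and 1.05 to 1.06 in the other T15 libraries, where library 15A had the highest Fgfr4 level (1640 CPM). Neither library was left out of the reported values.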

How the results depend on the processing

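For comparisons with T0, 783 of 800 alternative values kept the call. Among values not called, a change of sign was counted as kept. Fgfr1 at T30, for example, went from -0.26 to 0.17 after background subtraction, not called in either fit. Sdc4 and Met at T60, T90 and T120, Fgfr1 at T90 and T120 and Fgfr4 at T120 kept direction and call under all 32 alternatives each. Fgfr1 at T60 (0.35) became 0.088 with upper-quartile factors, 0.35 with the replicate block (adjusted p = 0.0633), 0.22 without the 5 libraries of highest background, -0.015 after background subtraction, and 0.29 to 0.43 with 1 library left out. Fgfr4 at T90 became called at -0.43 with upper-quartile factors and -0.45 after background subtraction, and Sdc3 at T120 at -0.43 with upper-quartile factors.

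For steps, 790 of 800 values kept the call, again with changes of sign among values not called counted as kept. After background subtraction, T30 against T15 changed sign for Sdc4 (-0.27 to 0.37), Fgfr1 (-0.39 to 0.17) and Fgfr4 (-0.17 to 0.40), with no call. T60 against T30 after background subtraction gave -0.19 for Fgfr1, -0.70 for Fgfr4 and 0.22 for Met. Without the 5 libraries, which left only library 30C at T30, it gave 0.34 for Fgfr1 and 0.18 for Met. With upper-quartile factors Met gave 0.21. Leaving out 1 library gave -0.51 to -0.29 for Fgfr1 at T30 against T15, 0.34 to 0.61 for Met at T60 against T30, 0.56 to 0.81 for Sdc4 at T90 against T60 and 0.51 to 0.79 for Fgfr1 at T120 against T90.

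For differences in log2 ratios against T0, 1235 of 1250 values moved by less than the spread. After background subtraction, Sdc4 over Sdc3 gave 0.61 at T30, 1.21 at T60 and 2.20 at T120, Met over Fgfr4 gave -0.19 at T30 and 0.74 at T60, and Fgfr1 over Sdc3 gave 0.30 at T30, -0.27 at T60 and 1.46 at T120. Met over Sdc3 gave 0.44 at T30, and Fgfr4 over Sdc3 gave 0.63, -0.45, -0.59 and -1.48 at T30 to T120. Without the 5 libraries, Met over Sdc3 gave 0.11 at T30, from library 30C alone, and Fgfr4 over Sdc3 gave -0.27 at T60. The cause was not tested.

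Over all listed genes, background subtraction called 708 genes at T30 and 2892 at T60 against T0, where TMM without it called 403 and 4533. It called 597 for T30 against T15 (394 without it), 2511 for T60 against T30 (4111), 1000 for T90 against T60 (2441), 622 for T120 against T90 (1851) and 3079 for T120 against T60 (4864). Without the 5 libraries only library 30C was left at T30, so no counts are given for its comparisons. Fits of only the 2 time points called 98 for T30 against T15 and 793 for T120 against T90, and DESeq2 and limma-voom called 647 and 260 for T30 against T15.

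The joint test called 4 or 5 of the 5 genes under its alternatives. Letters A to D were not taken to pair libraries, since the labels give them no meaning and 26 of 51 same-letter pairs, not all, had a correlation of deviations over 0.1 (-0.58 to 0.47). The median was 0.12, against -0.02 for other pairs, and 11 of 22 libraries were closest to their own letter, a hint of shared deviation from the data and not the design. The replicate block changed no other call. Sdc4 at T60 against T30 (1.82) was 0.94 after background subtraction with TMM factors computed anew. Low depth and background before T60 limit comparisons with the early libraries, and TMM scaling hides any shift shared by most genes.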
